A study of Mus musculus with 24 samples.

Results

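Hat1, Ash1l, Mll5, Chd7 and Brwd3 encode enzymes and readers of histones, and each carries at least 1 match to the seed of the microRNA miR-155 in its 3' untranslated region (3' UTR). The members described here are all rows of the authors' deposited peak table with these gene symbols, 46 of 14634 peaks, in 5 of 4165 genes. Hat1 contributed 2 peaks, Ash1l 17, Mll5 9, Chd7 7 and Brwd3 11. The genes were chosen by the genotype values and the miR-155 matches of these same peaks, which were known beforehand. Those values are therefore given as a description, without a test.

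Argonaute 2 (AGO2) was crosslinked to its RNA and immunoprecipitated with a custom rabbit antibody, and this RNA was sequenced, an assay known as HITS-CLIP. The 24 libraries came from 12 miR-155 knockout (miR-155 KO) and 12 wild-type (WT) biological replicates. All were CD4+ T cells of C57BL/6 mice from spleen and lymph nodes, activated for 4 days with 1 µg/mL of CD3 and CD28 antibodies in 20 U/mL of IL-2; ages are not stated in the labels. In each genotype 6 libraries carried one 3' linker and 6 the other. The table gives 1 pooled value per genotype and peak, so no effect of the linker can be estimated for a peak and no error between libraries can be given. The values are scaled reads, computed as 2 to the power of the deposited log2 value, less 1. They summed to 374126 in KO cells and 371088 in WT cells over all peaks. The depth of single libraries is unknown. Of 9 genes searched as markers of CD4+ T cells, 8 had peaks, Cd4 and Cd3e among them, and Cd5 had none. Cd3d and Cd3g were near the floor, with 0.63 and 5.43 scaled reads in KO cells and 0 in WT cells. No peak was listed under the 21 symbols searched as markers of CD8+ T cells, B cells, myeloid cells, NK cells, red cells and platelets, of which Adgre1 and Emr1 name the same gene.

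A microRNA guides AGO2 to a messenger RNA by pairing its seed, bases 2 to 8, with a complementary stretch, most often in the 3' UTR, and the bound message is then translated less and decays faster. miR-155 is induced when lymphocytes are activated and is needed for normal T cell responses. Histone modifiers and readers set which parts of the chromatin are open to transcription, and activated T cells remodel their chromatin as they divide and differentiate. Hat1 acetylates newly made histones before they are placed on DNA. Ash1l methylates a lysine of histone H3 and is a Trithorax-group protein, and Mll5 (now named Kmt2e) has a PHD finger that binds the methylated tail of histone H3. Chd7 is an ATP-dependent remodeller with chromodomains, and Brwd3 combines WD repeats with bromodomains, which bind acetylated lysines.

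The mature mouse miR-155-5p, from RefSeq (GRCm38.p6), is shown first, with its seed in capitals. Below it stand 30 nt around each match of 7 or 8 nt, with the matching bases in capitals, because these are the stretches where the genotypes are compared.
mmu-miR-155-5p: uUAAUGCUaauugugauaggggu
Hat1 peak 2: gaacatatattGCATTAAtaaaagatggct
Ash1l peak 17: cttgaaagtctAGCATTAAatggaaacaac
Mll5 peak 5: tttatacatatGCATTAAgtatacagttaa
Brwd3 peak 6: tatattttattGCATTAAtagaacttgtgt
Brwd3 peak 5: ctgatgtgtGCATTAActttattaaaagag
Chd7 peak 5: aaagctaaaacAGCATTAcctcagctctga

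The peak sequences were searched on the transcript strand for GCATTA, the complement of bases 2 to 7 (a 6mer), extended by A on its right (7mer-A1), by A on its left (7mer-m8) or by both (8mer). These extended motifs contain the 6mer, and each peak was counted in its longest class. A 7-nt or 8-nt match was present in 6 of the 46 peaks, and in 265 of all 14634 peaks (1.81%). Ash1l held the single 8mer, Chd7 the single 7mer-m8, and Hat1, Mll5 and Brwd3 (in both of its peaks) held 7mer-A1 matches. All 46 peak sequences matched a GENCODE M21 transcript of their gene, and the matches were placed on GRCm38; the authors' own build was mm9. Every peak lay in the last exon, within the annotated 3' UTR. The match of Hat1 lies at chr2:71441488-71441494 (plus strand) in exon 11, and that of Ash1l at chr3:89079348-89079355 (plus strand) in exon 28. Those of Mll5 at chr5:23503404-23503410 and of Chd7 at chr4:8867472-8867478 are also on the plus strand, in exons 26 and 38. The Brwd3 matches at chrX:108742140-108742146 (peak 6) and chrX:108742243-108742249 (peak 5) are on the minus strand, in exon 41, and start 103 nt apart.

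Every 7-nt or 8-nt match in these 3' UTRs lay inside an AGO2 peak. The genes were chosen for matches in their peaks, so at least 1 match in each gene was bound to lie in one. The share for the 3' UTRs of other genes is not given here. The 5 annotated 3' UTRs hold 10772 nt together and contain 6 matches of 7 or 8 nt, all 6 within a peak. They also contain 2 plain 6mers, in Chd7 and Brwd3, neither of them in a peak, and 4 offset 6mers (AGCATT, not followed by A), 1 of them in a peak, peak 11 of Brwd3. Peaks covered 32.4% of the annotated 3' UTR of Hat1, 29.2% of Ash1l, 31.7% of Mll5, 29.2% of Chd7 and 7.83% of Brwd3. In Brwd3 the last 3533 nt of the annotated 3' UTR held no peak. The matches stand at very different places: 153 nt into the 287-nt 3' UTR of Hat1, 357 nt into the 1188 nt of Mll5, 817 nt into the 1004 nt of Chd7, and 767 and 870 nt into the 6000 nt of Brwd3. In Ash1l the match starts at nt 2266 of 2293 and ends 20 nt before the annotated end of the transcript.

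AGO2 reads at 4 of the 6 matches were far lower without miR-155, 1 in each of Hat1, Ash1l, Mll5 and Brwd3. These were the 4 peaks of the 46 with a Benjamini-Hochberg adjusted p below 0.05, computed over all 14634 p-values of the authors' deposited table, against a background of 0.574% of all peaks lower in KO cells; 1.9% of all genes with a peak had such a peak. No peak of the 5 genes was higher in KO cells at that threshold, which 0.0273% of all peaks passed. Among all 265 peaks with a 7-nt or 8-nt match, 22.3% were lower. The log2 ratios of the authors' deposited table are wild type over knockout, so that a positive value means fewer reads in KO cells.

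Peak 2 of Hat1 held 5.78 scaled reads in KO cells and 147 in WT cells, a 25.5-fold lower level in KO cells. In the authors' deposited table its log2 ratio was 4.45, with an adjusted p of 1.18e-49. The match overlaps the hexamer AATAAA, the canonical polyadenylation signal, by its last bases, as the capitals and the bases after them show above. AATAAA stood in 9.57% of all peaks and in 6 of the 46 here, among which peak 2 of Hat1 was the only one with a miR-155 match. The annotated transcript runs on for 114 nt after this peak.

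Peak 17 of Ash1l was listed at 0 in KO cells and held 111 reads in WT cells, so no fold is given (adjusted p = 1.68e-25 from the authors' deposited p). It was the last of the 17 peaks of this gene and the second by reads.

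Peak 5 of Mll5 had the most wild-type reads of the 6 match peaks, ranking 160 of all 14634 peaks by that measure. It held 5.93 scaled reads in KO cells and 231 in WT cells, 38.9-fold lower in KO cells. The log2 ratio in the authors' deposited table was 5.06, larger than that of Hat1, yet its p was 5.21e-06 (adjusted 0.00141) against 8.05e-54 for Hat1. The p-values of these peaks thus do not follow reads and ratio alone, and the test behind them is not stated in the sources.

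Peak 6 of Brwd3 kept the most reads of these 4 peaks without miR-155. It held 18.6 scaled reads in KO cells and 95.4 in WT cells, 5.13-fold lower in KO cells (adjusted p = 0.00742). The authors' deposited table gives it a log2 ratio of 2.30. With a Bonferroni adjustment the peaks of Mll5 (p = 0.0762) and Brwd3 (p = 0.512) no longer passed, and those of Hat1 and Ash1l did.

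The other 2 matches had more reads in KO cells, and neither difference passed the threshold. Peak 5 of Brwd3, with the same 7 bases as peak 6, held 22.6 scaled reads in KO cells and 18.9 in WT cells. Its log2 ratio in the authors' deposited table was -0.24, with an unadjusted p of 0.539. Peak 5 of Chd7 held 25.5 in KO cells and 14.5 in WT cells, and the authors' deposited table gives a log2 ratio of -0.78 and an unadjusted p of 0.429.

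**Figure D1:**
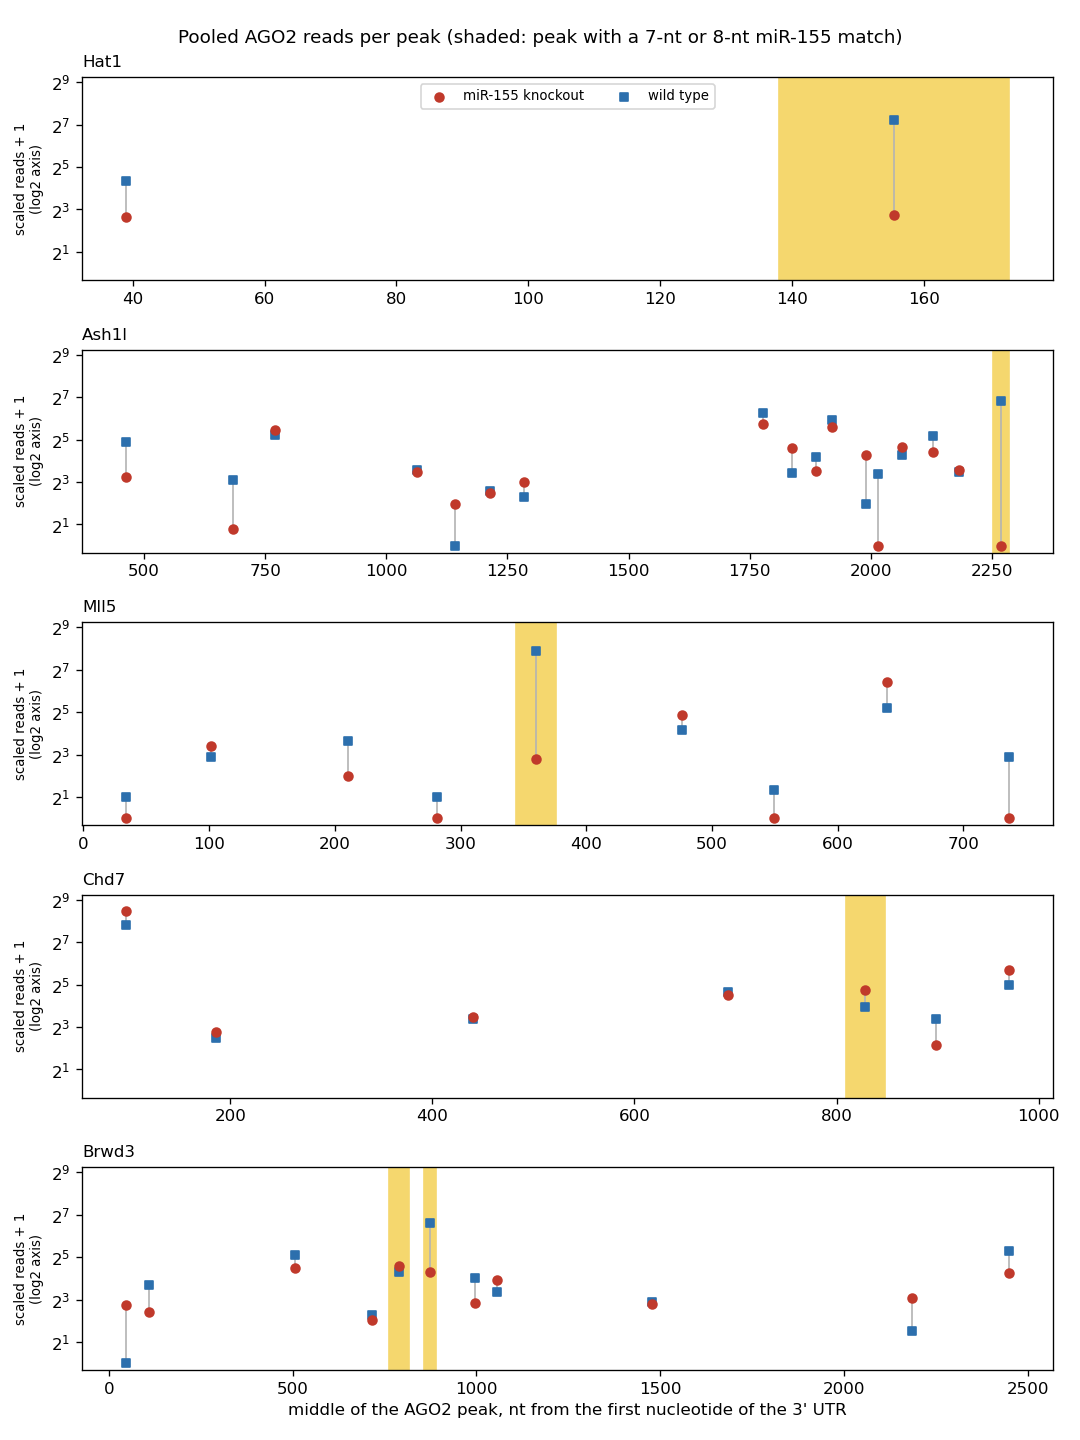
Scaled AGO2 reads plus 1 (log2 axis) for each of the 46 peaks, against the middle of the peak in nt counted from the stop codon's end, where the 3' UTR begins, with red circles for the knockout and blue squares for wild type; yellow marks the 6 peaks with a 7-nt or 8-nt miR-155 match. In Hat1, Ash1l, Mll5 and peak 6 of Brwd3 the red circle of a shaded peak lies far below its blue square. In peak 5 of Chd7 and peak 5 of Brwd3 it lies above.

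The 6 peaks also differed in where the match sat in the peak. Peaks are drawn from the same AGO2 reads, so this position is not independent of the genotype values. In the 4 lowered peaks the middle of the match lay within 2.5 nt of the middle of the peak sequence, at 0.5 nt in Hat1, 0 nt in Ash1l, -1 nt in Mll5 and -2.5 nt in Brwd3 peak 6 (negative values are toward the 5' end). In the 2 other peaks it lay off the middle, by -21 nt in Brwd3 peak 5 and by -9.5 nt in Chd7 peak 5. A site of another microRNA family stood nearer to the middle in both. Sites of 7 or 8 nt were searched for 15 further families, with the same 3 classes, and the matching bases of the sites concerned are in capitals here.
Chd7 peak 5, let-7 site: taaaacagcatTACCTCAgctctgaactag
Brwd3 peak 5, miR-26 site: ttaaaagagtaTACTTGAggtatcgatcta

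In Chd7 peak 5 the let-7 site (7mer-A1) lay -4.5 nt from the middle and shares 2 nt with the miR-155 match, and a miR-30 site (7mer-A1) lay at 21.5 nt. In Brwd3 peak 5 the miR-26 site (7mer-m8) lay 2 nt from the middle, 16 nt downstream of the miR-155 match. The 4 lowered peaks held no site of the 15 families, and neither did most of the 46 peaks: 15 of them held one. A let-7 site was present in 1.93% of all peaks, a miR-26 site in 2.04% and a miR-30 site in 2.92%. The share of all peaks with a site of any of the 15 families is not given here. The shares of single families therefore do not tell how rare such a site is. The sites are sequence matches only, and which microRNA was bound at a peak was not measured.

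Across all 265 match peaks the same position can be read. The 168 with the match at most 8 nt from the middle had a median deposited log2 ratio of 3.45 (quartiles 2.30 and 4.44), and 48 of them (28.6%) were lower in KO cells. The 97 with the match farther out had a median of 2.48 (quartiles 1.15 and 3.59), and 11 (11.3%) were lower. Brwd3 peak 5 (-0.24) and Chd7 peak 5 (-0.78) lay below the lower quartile of these 97, so their ratios were low even among matches farther out. Without the 5 genes the medians were 3.45 over 164 peaks and 2.48 over 95. The limit of 8 nt was chosen after these values were seen, and peak middles and ratios come from the same reads. This is therefore a description without a test.

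**Figure D2:**
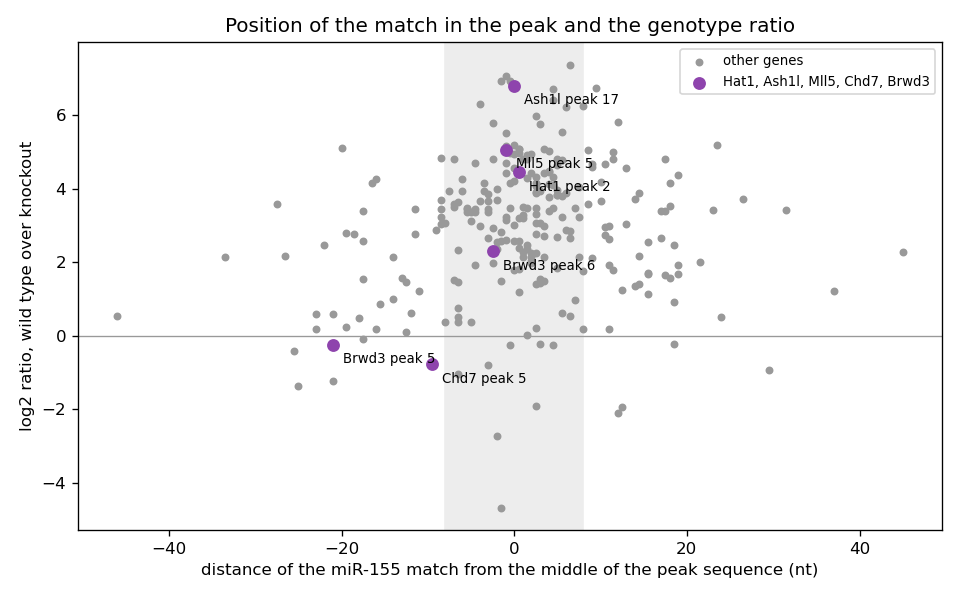
Log2 ratio (wild type over knockout, so that high means fewer reads in KO cells) of the 265 peaks with a 7-nt or 8-nt miR-155 match, against the distance in nt of the match from the middle of the peak sequence; purple points are the 6 peaks of the 5 genes and the grey band marks 8 nt on either side. The 4 lowered peaks lie at the middle with ratios of 2.30 to 6.81, and Brwd3 peak 5 and Chd7 peak 5 lie left of the band just below 0.

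None of the other peaks on the same transcripts passed the threshold. Over the 40 peaks without a 7-nt or 8-nt match or a 6mer (offset 6mers were not left out) the median log2 ratio was 0.11, beside 0.17 for the 14267 such peaks of the whole table, and ranged from -2.73 to 3.39. By the deposited ratio 17 of them had more reads in KO cells and 23 more in WT cells, and over all peaks wild type had more in 56.4%. Among the 40 peaks the value was 0 for 5 in KO cells and for 2 in WT cells. The authors' deposited table gave an unadjusted p below 0.05 to 3 of these peaks, 2 of them higher in KO cells and 1 lower. Over all peaks 1.48% were higher and 2.72% lower at that level.

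Those 3 peaks lay in Ash1l and Chd7. Peak 12 of Ash1l held 18.1 scaled reads in KO cells and 2.95 in WT cells (unadjusted p = 0.00496, adjusted 0.386). Peak 1 of Ash1l held 8.54 in KO cells and 28.8 in WT cells (unadjusted p = 0.00972, adjusted 0.576). Peak 1 of Chd7 held 355 in KO cells and 223 in WT cells (unadjusted p = 0.0490, adjusted 1.00). None of them passed the threshold after adjustment.

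Summed over each 3' UTR, the reads at the matches made up very different shares. Hat1 had 11.0 scaled reads in KO cells and 166 in WT cells, and its match peak held 52.3% of them in KO cells and 88.5% in WT cells. Its only other peak, peak 1, also had fewer reads, 5.26 in KO cells and 19.0 in WT cells (log2 ratio 1.68, unadjusted p = 0.322 in the authors' deposited table). Mll5 had 131 in KO cells and 311 in WT cells, with 4.54% of them at the match in KO cells and 74.3% in WT cells. Outside the match Mll5 had more reads in KO cells, 125 against 79.8 in WT cells, most of them at peak 8 (84.4 in KO cells and 35.7 in WT cells; log2 ratio -1.22, unadjusted p = 0.683). The other peaks of Mll5 thus ran in the opposite direction to its match peak in their sum, though 5 of the 8 had the higher value in WT cells.

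Ash1l had 282 scaled reads in KO cells and 439 in WT cells. Its match peak made up 0% in KO cells and 25.4% in WT cells, and the other 16 peaks held 282 in KO cells and 328 in WT cells. The most-read peak of Ash1l was peak 8, with 52.0 in KO cells and 75.1 in WT cells. Peak 11 held 47.0 in KO cells and 58.8 in WT cells, and neither peak 8 nor peak 11 contained a match to miR-155. Peaks 3, 9 and 14 of Ash1l contained a site of miR-142-3p, a microRNA abundant in blood cells, and held 42.4, 22.9 and 23.7 in KO cells and 35.8, 9.60 and 18.1 in WT cells. Peaks 2 and 15 contained a miR-15/16 site, and peak 15 had 20.5 in KO cells and 35.1 in WT cells at an 8mer 1 nt from its middle.

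Brwd3 had 127 scaled reads in KO cells and 233 in WT cells. Its 2 match peaks together held 32.4% of these in KO cells and 49.2% in WT cells, and its 9 others held 85.8 in KO cells and 118 in WT cells. After peak 6 the most-read peak was peak 11, with 18.3 in KO cells and 37.4 in WT cells (unadjusted p = 0.337), which contained an 8mer of miR-27 and the offset 6mer of miR-155. Peak 3, with a miR-19 8mer 1 nt from its middle, held 21.02 in KO cells and 32.7 in WT cells. The peaks of Brwd3 held sites of 6 of the 15 other families, those of Chd7 of 4, of Ash1l of 2, of Hat1 of 1 and of Mll5 of 0; the 3' UTRs outside the peaks were not searched for these families.

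Chd7 was the only one of the 5 genes with more summed reads in KO cells, 472 against 316 in WT cells. Peak 1 alone held 75.2% of them in KO cells and 70.7% in WT cells, and it contained a 7mer-m8 of miR-21 -2 nt from its middle. The match to miR-155 held 5.40% of the reads of Chd7 in KO cells and 4.59% in WT cells. Peak 7, the second by reads, had 50.2 in KO cells and 30.3 in WT cells and no site of the 15 families (unadjusted p = 0.487). Taking the 5 genes together, the 6 match peaks held 78.3 scaled reads in KO cells and 618 in WT cells, and the 40 others 944 in KO cells and 846 in WT cells. Outside the match peaks, Mll5 (125 in KO cells and 79.8 in WT cells) and Chd7 (447 and 301) had more reads in KO cells. Hat1 (5.26 in KO cells and 19.0 in WT cells), Ash1l (282 and 328) and Brwd3 (85.8 and 118) had fewer. Without RNA levels for these cells, whether the amount of a transcript also changed was not tested.

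**Figure D3:**
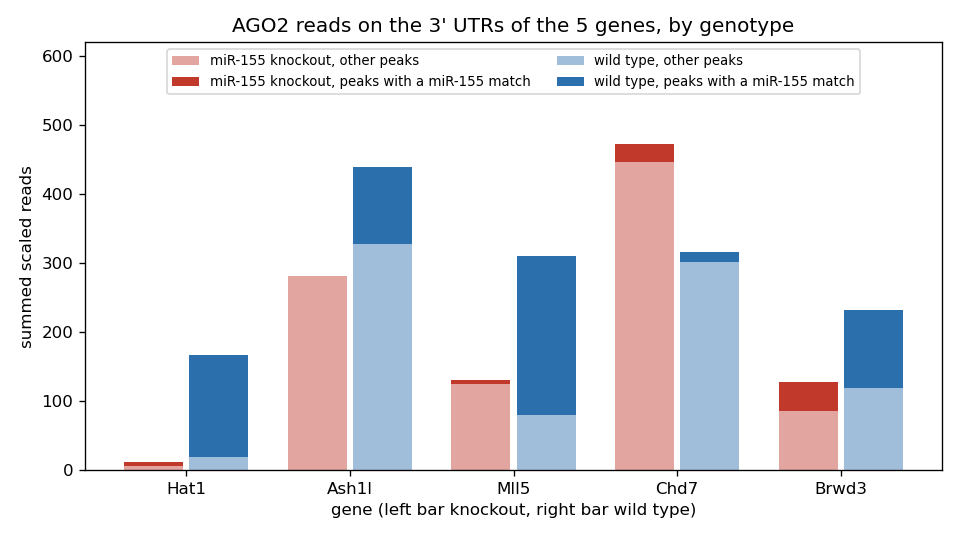
Summed scaled reads per 3' UTR (bars start at 0; left bar knockout, right bar wild type), with peaks that hold a 7-nt or 8-nt miR-155 match in full colour and the other peaks in pale colour. The full-colour part is small or missing in KO cells and large in WT cells for Hat1 (5.78 in KO cells and 147 in WT cells), Ash1l and Mll5, and in Chd7 it is a small part of both bars.

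For each gene, the peak of another gene with the nearest pair of deposited log2 values was looked up. With 1 pooled value per genotype this likeness rests on 2 values, by which the genes were also chosen. A miR-155 match in such a peak is thus no separate result. The distance in log2 units was 0.37 for Hat1, 0.0045 for Ash1l, 0.65 for Mll5, 0.21 for Brwd3 and 0.034 for Chd7. The nearest to Hat1 peak 2 was peak 2 of Jarid2, which works with the Polycomb complex PRC2, with 4.46 scaled reads in KO cells and 129 in WT cells and an 8mer. The nearest to Mll5 peak 5 was Hat1 peak 2 itself, and the nearest to Ash1l peak 17 was Rcn2 peak 2, with 0 in KO cells, 111 in WT cells and a 7mer-m8. The nearest to Brwd3 peak 6 was peak 1 of Ctss, a lysosomal protease gene, with 20.8 in KO cells and 86.1 in WT cells. That peak held no match and had a p of 0.601 in the authors' deposited table, against 3.5e-05 for Brwd3 peak 6. The nearest to Chd7 peak 5 was Aebp2 peak 4, with 25.2 in KO cells and 14.2 in WT cells and no match.

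Set among other histone genes, the losses were few. Of 146 symbols of histone acetyltransferases, deacetylases, methyltransferases, demethylases, CHD remodellers and readers, 91 had peaks, 443 in all. In 6 of these peaks, in 6 genes, reads were lower in KO cells at an adjusted p below 0.05 and in 0 higher (1.35% lower, beside 0.574% of all peaks). At an unadjusted p below 0.05 there were 15 lower and 6 higher. Without the 5 genes there were 10 lower and 4 higher among 397 peaks. Of all peaks 2.72% were lower and 1.48% higher at that level. The median log2 ratio of the 443 peaks was 0.16, beside 0.20 over all peaks. Of the 6 peaks lower at the adjusted threshold, 4 belong to Hat1, Ash1l, Mll5 and Brwd3, which were chosen for them. The 86 other genes had 2 such peaks among 397 (0.504%), close to the share of all peaks.

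These 2 also contained a match. Peak 1 of Jmjd1c, a demethylase-family gene and the most-read gene of the list, held 2.20 scaled reads in KO cells and 33.9 in WT cells (7mer-m8; adjusted p = 0.000146 from the authors' deposited p). Peak 9 of Nsd1, a histone H3 methyltransferase gene, was listed at 0 in KO cells and held 25.04 in WT cells (7mer-A1; adjusted p = 0.00351). A 7-nt or 8-nt match was present in 15 peaks of 12 genes on the list, and 9 of these 15 did not pass the threshold. Without the 5 genes, 9 of 397 peaks (2.27%) held a match, beside 1.81% of all peaks. Of these 9 peaks 2 were lower in KO cells, beside 22.3% of all 265 match peaks. Peak 3 of Setd8, another methyltransferase gene, held 42.0 in KO cells and 48.0 in WT cells at a 7mer-A1. Jhdm1d, a demethylase gene, had 3 match peaks. Peak 3 held 27.96 in KO cells and 43.3 in WT cells at a 7mer-A1 (unadjusted p = 0.676 in the authors' deposited table). Peak 9 was listed at 0 in KO cells and held 20.5 in WT cells at an 8mer (adjusted p = 0.384). Peak 11 held 10.5 in KO cells and 49.7 in WT cells at a 7mer-m8 (adjusted p = 0.254). Peak 1 of Chd8, a remodeller related to Chd7, was listed at 0 in KO cells and held 17.6 in WT cells (adjusted p = 0.241).

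By class, 1 of 35 acetyltransferase peaks was lower in KO cells (Hat1), and 3 of 156 methyltransferase peaks were (Ash1l, Mll5 and Nsd1). Mll5 was listed with the methyltransferases, and whether it acts as one was not examined. Also lower were 1 of 74 demethylase peaks (Jmjd1c) and 1 of 140 reader peaks (Brwd3). None of the 6 deacetylase and 32 CHD peaks passed. At an unadjusted p below 0.05 these classes had 0 and 1 lower and 0 and 2 higher. Of all peaks 2.72% were lower and 1.48% higher at that level. Peak 1 of Chd7 was among the higher CHD peaks. Highly read genes of the classes had values on both sides. Jmjd1c had 811 scaled reads in KO cells and 748 in WT cells, and Mll1, the founding MLL-family methyltransferase gene, had 650 in KO cells and 472 in WT cells over 28 peaks. Ncoa3, a coactivator counted here with the acetyltransferases, had 258 in KO cells and 199 in WT cells, and Myst2 had 92.9 in KO cells and 87.0 in WT cells. Hdac4, a deacetylase gene, had 166 in KO cells and 52.0 in WT cells at its single peak, and Sirt1 had 33.0 in KO cells and 65.0 in WT cells. Chd1 had 239 in KO cells and 157 in WT cells. Among the readers Atad2b had 285 in KO cells and 341 in WT cells. None of these genes had a lowered peak other than Jmjd1c.

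**Figure D4:**
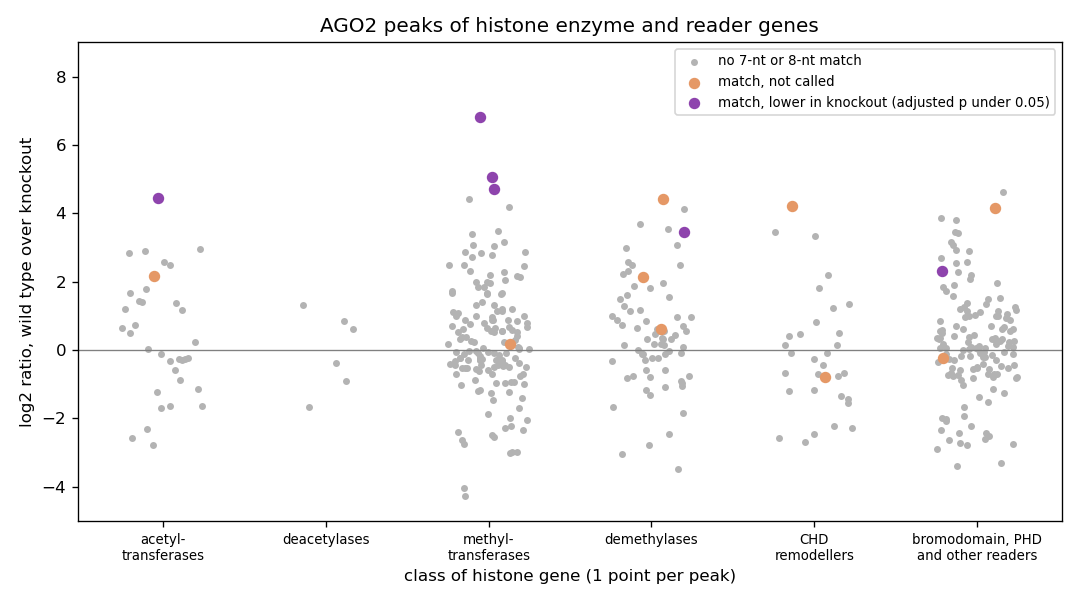
Log2 ratio (wild type over knockout) of each of the 443 peaks of histone genes by class, 1 point per peak; purple points hold a 7-nt or 8-nt miR-155 match and were lower in KO cells at an adjusted p below 0.05, orange points hold a match and were not. The 6 purple points lie between 2.30 and 6.81, the 9 orange points spread from -0.78 to 4.43, and the grey peaks without such a match lie on both sides of 0.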

How the data were processed

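AGO2 HITS-CLIP reads of 12 miR-155 knockout and 12 wild-type libraries were processed by the authors; the submitters' processing notes name Bowtie 0.12.7 and mm9. Per the file headers, the deposited log2 columns hold reads for WT, for KO and for WT over KO, and the deposited p-value tests differential binding. Peak caller, pooling, scaling, duplicate removal and the test are not stated there. WT minus KO gave the deposited log2 ratio to within 6e-05, and 0 was the lowest value, so reads were computed as 2 to the power of the deposited log2 value less a pseudocount of 1. The pseudocount understates changes of peaks with few reads.

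Benjamini-Hochberg adjustment covered all 14634 peaks, and 0.05 was the threshold; the adjustment and the site search were tested on simulated data. Of the deposited p-values 4.20% lay below 0.05 and 9.03% above 0.95, which is not uniform. Tests across libraries, which were planned for per-library reads, could not be made on pooled columns. Deposited sequences are 6 nt longer than the peak at either end in all 46 peaks of the 5 genes. Seeds came from RefSeq mature microRNAs; miR-150 was not searched. Positions are exact matches to GENCODE M21 (GRCm38). The deposited distances to the start of the 3' UTR are 1 nt shorter than those on GENCODE in Mll5, Chd7 and Brwd3. Mll5 was matched through its newer symbol, Kmt2e.

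The members and lists were chosen with earlier results of these data known. The genes and peaks named were those with a match, each gene's 2 most-read peaks, peaks with an unadjusted p below 0.05, and, of the histone list, genes with a lowered peak and the 2 most-read per class, of which 1 gene is not reported here; Setd8, Jhdm1d, Chd8, further peaks with sites of other families, Ash1l peak 11 and the 8-nt limit were chosen after their values were seen. Python 3.11.15, NumPy 2.4.6, pandas 2.3.3 and Matplotlib 3.10.9 were used.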

Additional observations from a re-analysis of the deposited data

How the results depend on the processing

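The 4 lowered peaks numbered 4 at adjusted p thresholds of 0.01 and 0.1 and with a minimum of 10 scaled reads, 3 when peaks listed at 0 in a genotype were left out (Ash1l peak 17 is one of these) and 2 with a Bonferroni adjustment. The count higher in the knockout was 0 under each of these 5 alternatives. The histone list had 6 lowered peaks, 7 at a threshold of 0.1 and with the minimum of reads, 4 without peaks listed at 0, and 3 with a Bonferroni adjustment. Counting the 8mer alone left 1 of the 6 match peaks, and 6mers or the sequence without flanks left 6. The median log2 ratio of the 40 peaks without a 7-nt or 8-nt match or a 6mer was 0.11 and became -0.086 when centred on the median of all peaks, since the whole table has a median of 0.20; with the pseudocount removed and peaks listed at 0 in a genotype left out it was 0.08. Summed reads per gene stayed within 1.5 times in all 20 recalculations, which scaled the genotypes to one total or kept peaks with at least 10 scaled reads. No paired analysis was possible because the table holds pooled columns with no replicate numbers, and for the same reason no library could be left out. Of the 46 peaks, 11 held fewer than 10 scaled reads in both genotypes together. The depth of the libraries is unknown, so no counting interval can be given.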
